A study of Mus musculus with 8 samples.

Results

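DNA polymerases copy the genome in S phase and fill or bypass damaged stretches of it. The 10 genes described here comprise 7 that encode subunits of the replicative polymerases or primase (Pola1, Pola2, Prim1, Prim2, Pold1, Pole and Pole2), 1 end-joining polymerase (Polq) and 2 translesion polymerases (Polh and Polk). They were taken by symbol from a table of 35963 gene symbols, their transcripts were summed per gene, and all 10 passed the filter on low counts along with 15893 genes in all. RNA came from colonic epithelial cells that a release buffer had freed from the proximal colon of mice aged 4 weeks. The 4 libraries with the label Ccna2-KO are from Ccna2 fl/fl vil-Cre mice. The villin promoter drives their Cre and is active along the intestinal epithelium and not in leukocytes or stroma. The 4 control libraries, called wild type in the labels, are from Ccna2 fl/fl mice without Cre, so both groups carry the floxed alleles. Whether each library is a separate mouse is not stated, so a p-value reflects how these libraries vary, which may be technical. Because the samples are bulk RNA, fewer cells of a type and less RNA per cell cannot be told apart.

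At a replication fork, polymerase alpha and primase form a complex that lays down short RNA-DNA primers, polymerase delta extends them on the lagging strand, and polymerase epsilon copies the leading strand. These genes are classical targets of E2F transcription factors and are expressed by cycling cells, which in the colon lie in the lower crypt. Translesion polymerases copy across damaged bases, and polymerase theta, encoded by Polq, joins broken ends through short matching stretches. Cyclin A2, the product of Ccna2, activates Cdk1 and Cdk2 from S phase to mitosis. The comparison addresses whether the enzymes of regular replication and those of bypass and repair differ alike when Ccna2 is targeted in this tissue.

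Polq and 3 replicative genes, Pole, Pola1 and Pola2, rose in the Ccna2-KO-labelled libraries. In edgeR's quasi-likelihood test, with p-values adjusted over all genes tested and a threshold of 0.05, these 4 of 10 genes were called higher, against 6.40% of all genes tested. No member was called lower, against 5.71% of all genes. At an unadjusted edgeR p under 0.05 the count of lower members was also 0, against 2153 of the 15893 genes tested. By DESeq2 and by limma voom it was likewise 0 (all genes lower: 9.01% by DESeq2 and 5.27% by limma voom). Prim1, Prim2, Pold1, Pole2, Polh and Polk did not pass. The median log2 fold change was 0.81 over the 7 replicative genes and 0.15 over Polh and Polk, against -0.02 over all genes tested. Polq had 1.65.

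The promoter windows of 5 members are shown because 3 of these genes (Pola1, Pola2 and Polq) passed the test and the other two (Pold1 and Polk) did not. Each runs from 250 bases before to 50 bases after a RefSeq transcription start (GRCm38.p6), 5′ to 3′ on the gene's strand. Capitals mark 2 motifs searched on both strands, the 7-letter E2F words (TTCCCGC or TTGGCGC or TTCGCGC or TTGCCGC) and the cell cycle homology element TTTGAA, known from promoters of late cell cycle genes.
Pola1 (chrX:93632106-93632405, minus strand): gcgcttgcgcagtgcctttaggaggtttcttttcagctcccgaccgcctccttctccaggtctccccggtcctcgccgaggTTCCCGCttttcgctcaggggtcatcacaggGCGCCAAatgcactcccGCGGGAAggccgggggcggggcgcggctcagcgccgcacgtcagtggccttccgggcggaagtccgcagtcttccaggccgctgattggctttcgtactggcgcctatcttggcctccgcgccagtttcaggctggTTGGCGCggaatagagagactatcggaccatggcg
Pola2 (chr19:5964157-5964456, minus strand): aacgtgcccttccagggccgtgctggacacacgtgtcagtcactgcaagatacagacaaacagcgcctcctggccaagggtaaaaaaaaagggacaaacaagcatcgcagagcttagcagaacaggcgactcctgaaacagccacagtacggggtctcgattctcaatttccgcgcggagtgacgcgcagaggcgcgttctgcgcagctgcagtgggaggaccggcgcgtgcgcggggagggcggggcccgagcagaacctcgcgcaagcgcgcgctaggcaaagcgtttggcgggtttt
Polq (chr16:37011536-37011835, plus strand): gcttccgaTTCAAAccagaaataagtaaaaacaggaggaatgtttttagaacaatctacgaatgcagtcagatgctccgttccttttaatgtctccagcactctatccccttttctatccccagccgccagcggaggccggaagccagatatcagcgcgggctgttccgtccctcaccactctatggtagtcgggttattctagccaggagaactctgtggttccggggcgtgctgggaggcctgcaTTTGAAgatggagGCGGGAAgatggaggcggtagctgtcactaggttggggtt
Pold1 (chr7:44548766-44549065, minus strand): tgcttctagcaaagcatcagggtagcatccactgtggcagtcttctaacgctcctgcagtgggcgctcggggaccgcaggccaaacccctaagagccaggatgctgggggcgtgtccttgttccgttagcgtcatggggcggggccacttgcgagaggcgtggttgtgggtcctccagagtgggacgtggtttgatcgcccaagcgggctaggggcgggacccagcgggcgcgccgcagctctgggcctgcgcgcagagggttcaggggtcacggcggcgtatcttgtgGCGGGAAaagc
Polk (chr13:96542530-96542829, minus strand): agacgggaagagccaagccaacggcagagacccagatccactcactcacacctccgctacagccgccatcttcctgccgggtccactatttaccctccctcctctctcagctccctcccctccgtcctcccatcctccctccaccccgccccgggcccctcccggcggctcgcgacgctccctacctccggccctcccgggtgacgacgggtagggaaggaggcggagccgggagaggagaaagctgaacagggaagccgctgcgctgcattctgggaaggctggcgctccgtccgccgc

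The table of windows held 8 of the 10 members, with 2 starts for Polk; Pole and Prim2 had no entry. A 7-letter E2F word occurred in the windows of Pola1, Prim1, Pold1, Pole2 and Polq, and in 14.8% of the windows of genes tested here. The Pola1 window held 4 of them and the other windows 1 each. The longer words TTTCCCGC, TTTGGCGC, TTTCGCGC and TTTGCCGC (each contains a 7-letter word) occurred in Pola1, Pold1 and Pole2, and in 3.48% of windows of tested genes. TTTGAA occurred in the Polq window only among the members, at 2 places. The second overlaps the start site, and the E2F word of this window follows it at base 11 after the start. It occurred in 13.0% of windows of tested genes. CCAAT, searched as a further promoter element, occurred in Pola1 and Prim1 and in 37.7% of windows of tested genes. The windows of Pola2, Polh and Polk held none of these words, and Pola2 passed the test while Polh and Polk did not. A word in a window is a match of letters and not a binding site, and its absence covers only these 300 bases.

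Of the 10 members, Polq showed the widest separation between groups. Its gene lies on chromosome 16, from 37011741 to 37095419. Levels are given as CPM, counts scaled to library size, with library sizes adjusted by TMM (the trimmed mean of M-values). The controls had 3.07, 2.91, 2.92 and 2.24 CPM in replicates 1 to 4, and the Ccna2-KO-labelled libraries had 7.92, 9.21, 10.3 and 7.61 CPM. The lowest Ccna2-KO-labelled library thus lay above every control, and control replicate 1 lay with the other controls. The log2 fold change was 1.65 ± 0.18 (SE), with an edgeR adjusted p of 0.000803. Polq counts were low: 73 to 95 per control library, and 194 to 330 per Ccna2-KO-labelled library.

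Pole, the catalytic subunit of polymerase epsilon, rose from 6.60 ± 4.25 to 18.4 ± 3.96 CPM (mean ± SD, n = 4 each). Its gene lies on chromosome 5, from 110286319 to 110337468. The controls had 12.9, 3.71, 4.92 and 4.85 CPM and the Ccna2-KO-labelled libraries had 17.7, 21.9, 20.8 and 13.1 CPM. The groups did not overlap, but control replicate 1 at 12.9 CPM was close to Ccna2-KO replicate 4 at 13.1 CPM. Pole had a log2 fold change of 1.48 ± 0.38 (SE; edgeR adjusted p = 0.033). Pole2, a smaller subunit of the same enzyme, had 6.97, 1.44, 1.23 and 2.27 CPM in the controls and 3.77, 6.06, 4.78 and 3.41 CPM in the Ccna2-KO-labelled libraries. Its highest value of all 8 was in control replicate 1, and its log2 fold change of 0.60 ± 0.52 (SE) did not pass (edgeR adjusted p = 0.518).

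The polymerase alpha and primase complex was split by the test. Pola1, the catalytic subunit of polymerase alpha, lies on the X chromosome from 93304766 to 93632387. It had 12.2, 4.99, 5.38 and 4.63 CPM in the controls and 16.0, 19.7, 17.7 and 10.3 CPM in the Ccna2-KO-labelled libraries. The groups overlapped through control replicate 1 and Ccna2-KO replicate 4. Pola1 had a log2 fold change of 1.23 ± 0.33 (SE; edgeR adjusted p = 0.0422). Pola2, the regulatory subunit, lies on chromosome 19 from 5940543 to 5964238. It had 25.7, 19.9, 20.7 and 19.9 CPM in the controls and 38.1, 36.7, 39.5 and 36.4 CPM in the Ccna2-KO-labelled libraries. Its groups did not overlap, and its 4 values in the Ccna2-KO-labelled libraries lay close together (SD 1.44 CPM). The log2 fold change of Pola2 was 0.81 ± 0.11 (SE; edgeR adjusted p = 0.00241).

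Neither primase subunit passed. Prim1, the catalytic subunit that makes the RNA primer, had 14.7, 3.39, 3.41 and 5.03 CPM in the controls and 10.9, 15.1, 13.1 and 7.73 CPM in the Ccna2-KO-labelled libraries. Control replicate 1 lay above 3 of the 4 Ccna2-KO-labelled libraries. The log2 fold change of Prim1 was 0.82 ± 0.47 (SE; edgeR adjusted p = 0.304), about as large as that of Pola2 but with an SE of 0.47 against 0.11. Prim2, the large primase subunit, had 12.7, 6.11, 4.92 and 4.73 CPM in the controls and 10.3, 14.3, 12.1 and 7.61 CPM in the Ccna2-KO-labelled libraries. Its highest control was also replicate 1, above 3 of the 4 Ccna2-KO-labelled libraries, and it had a log2 fold change of 0.64 ± 0.34 (SE; edgeR adjusted p = 0.263). Pold1, the catalytic subunit of polymerase delta, had 19.1, 7.54, 9.13 and 8.69 CPM in the controls and 13.6, 17.7, 19.3 and 10.3 CPM in the Ccna2-KO-labelled libraries. Control replicate 1 was within 1 CPM of the highest Ccna2-KO-labelled library, and its log2 fold change of 0.45 ± 0.31 did not pass (SE; edgeR adjusted p = 0.409).

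Over all 8 libraries the translesion genes had the smallest log2 fold changes of the members. This order did not hold throughout: with a term for whether the number that the labels give a library is low or high, Pold1 (0.04) and Pole2 (0.21, against 0.21 for Polh) were as low, and without control replicate 2 Pold1 (0.31) lay below Polh (0.36). Polh encodes polymerase eta, which copies past ultraviolet lesions, and its loss in people causes a variant form of xeroderma pigmentosum. It had 5.44, 5.75, 5.17 and 4.97 CPM in the controls and 6.71, 7.47, 7.02 and 5.45 CPM in the Ccna2-KO-labelled libraries. Of the Ccna2-KO-labelled libraries, replicates 1 to 3 lay above all controls and replicate 4 within their range. The log2 fold change of Polh was 0.32 ± 0.15 (SE; edgeR adjusted p = 0.22). Polk encodes polymerase kappa, which copies past bulky adducts. It had 11.3, 11.1, 15.0 and 13.6 CPM in the controls and 14.1, 15.0, 10.5 and 10.6 CPM in the Ccna2-KO-labelled libraries. The 2 ranges nearly coincided, with a log2 fold change of -0.02 ± 0.17 (SE; edgeR adjusted p = 0.95). Of the 10 members, Pola2, Pole and Polq had groups that did not overlap, all with the Ccna2-KO-labelled libraries above. Over all genes tested, 9.41% had that arrangement.

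**Figure D1:**
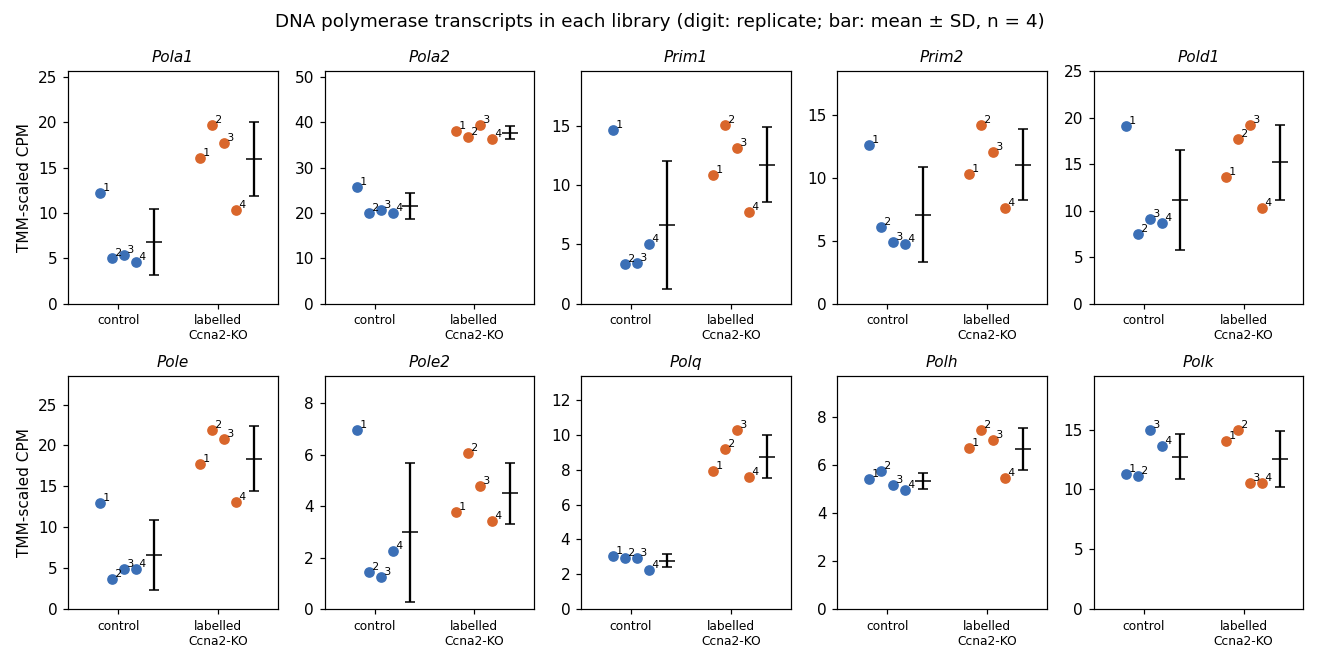
TMM-scaled CPM of each member (vertical axes start at 0) in the 4 control libraries (blue) and the 4 labelled Ccna2-KO (orange), with replicate numbers and, in black, the mean ± SD. Control replicate 1 lies apart from the other controls in the replicative genes, for example at 12.9 CPM of Pole, and among them in Polq at 3.07 CPM.

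The library labelled control replicate 1 stood apart in the replicative genes and bears on every result for them. On log2 CPM centred per gene over the 8 libraries, the mean of the 7 replicative genes was 0.53 in this library and -0.92, -0.87 and -0.73 in the other controls. The Ccna2-KO-labelled libraries had 0.44, 0.80, 0.69 and 0.06, so control replicate 1 lay within their range. Polq in the same library was at -0.67, against -1.11 to -0.74 in the other controls and 0.62 to 1.06 in the Ccna2-KO-labelled libraries. The translesion mean ranged from -0.14 to 0.03 in the controls and from -0.18 to 0.29 in the Ccna2-KO-labelled libraries. The replicative and Polq values therefore differed most in this library, by 1.20, against -0.17 to 0.38 in the other controls and -0.56 to -0.10 in the Ccna2-KO-labelled libraries.

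**Figure D2:**
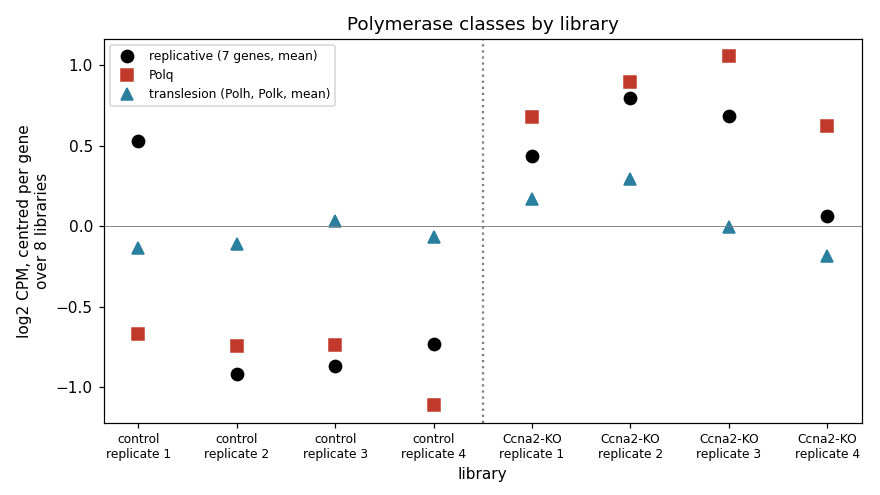
Mean of log2 CPM, centred per gene over the 8 libraries (vertical axis), for the 7 replicative genes (circles), Polq (squares) and the mean of Polh and Polk (triangles) in each library (horizontal axis). In control replicate 1 the replicative mean is 0.53 while Polq is -0.67.

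Without control replicate 1, all 7 replicative genes were called higher, with a median log2 fold change of 1.45, and Polq was called as before (1.71, edgeR adjusted p = 0.000257). In that fit 15.1% of all genes were called higher, and Polh (0.34) and Polk (-0.08) again did not pass. Leaving out any 1 of 6 other libraries (control replicates 2, 3 and 4 and Ccna2-KO replicates 1, 2 and 3) ended the calls of Pole and Pola1, with edgeR adjusted p up to 0.0931 and 0.118. Their log2 fold changes in these 6 fits stayed near those over all 8 libraries, at 1.282 to 1.503 for Pole and 1.083 to 1.239 for Pola1. Pola2 and Polq were called in every fit that left out a single library. Their log2 fold changes then ranged from 0.77 to 0.90 and from 1.56 to 1.72.

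The labels also number the libraries, and the numbers form a low set (595 to 598; control replicates 2, 3 and 4 and Ccna2-KO replicate 4) and a high set (621 to 641; control replicate 1 and the others labelled Ccna2-KO). The sources used here do not explain the numbers. Without control replicate 1, the controls are thus all of the low set. Each set has a single library of one of the groups, so the values within a set carry no test. Polq differed by 1.49 on the log2 CPM scale in the low set and by 1.55 in the high set. Pole (1.54 and 0.63), Pola1 (1.04 and 0.54) and Pola2 (0.85 and 0.57) were also higher in the Ccna2-KO-labelled libraries within both sets. The other replicative genes had opposite signs in the low and the high set. These were Prim1 (0.98 and -0.18), Prim2 (0.54 and -0.07), Pold1 (0.28 and -0.20) and Pole2 (1.07 and -0.54). Polh had 0.05 and 0.37, and Polk had -0.31 and 0.21.

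When the set was added to the fit as a term, the same 4 genes were called, against 9.29% of all genes called higher. The log2 fold changes were 1.54 ± 0.18 for Polq, 1.08 ± 0.20 for Pole, 0.79 ± 0.15 for Pola1 and 0.71 ± 0.10 for Pola2 (SE; edgeR adjusted p of 0.000789, 0.00601, 0.0067 and 0.00165). Pold1 then had 0.04 ± 0.16 (SE). The replicative median was 0.37 with the term, less than the 0.81 without it, while Polq had 1.54 against 1.65. The term is estimated from single libraries in each set, so an effect of control replicate 1 or Ccna2-KO replicate 4 alone cannot be told apart from an effect of the set.

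**Figure D3:**
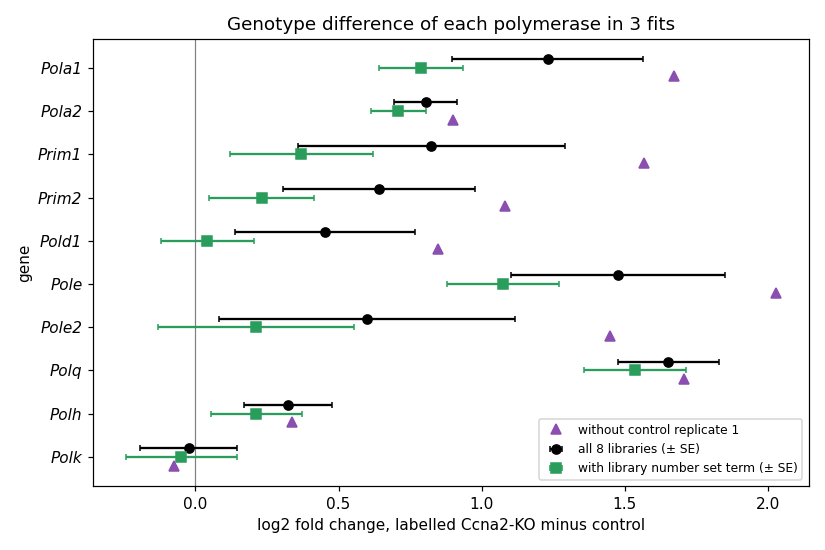
Log2 fold change of each member, Ccna2-KO-labelled libraries minus controls (horizontal axis), over all 8 libraries (black, ± SE), with the library number set as a term (green, ± SE) and without control replicate 1 (purple). Polq stays between 1.54 and 1.71, while Pole ranges from 1.08 to 2.03 and Pold1 from 0.04 to 0.85.

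Other genes measured in the same libraries stand beside these results. Ccna2 itself did not separate the groups: the controls had 54.3, 25.9, 11.9 and 18.3 CPM and the Ccna2-KO-labelled libraries had 18.2, 26.6, 26.6 and 16.2 CPM (log2 fold change -0.33 ± 0.41 SE, edgeR adjusted p = 0.673). Counts cover whole transcripts, exons that Cre does not remove included, and directions rest on the labels. Mki67, a marker of cycling cells, had 135, 88.6, 75.3 and 86.5 CPM in the controls and 241, 310, 329 and 252 CPM in the Ccna2-KO-labelled libraries. Of 12 cycling cell markers, 5 were called higher in edgeR, against 6.40% of all genes. At an unadjusted edgeR p under 0.05, 11 were higher, against 2023 of the 15893 genes tested. The count called moved with the fit. DESeq2 called 10 higher (9.56% of all genes) and limma voom 9 (7.10%). EdgeR called 9 higher with the number set as a term (9.29% of all genes) and all 12 without control replicate 1 (15.1%). The centred mean of these markers was 0.22 in control replicate 1, -1.12 to -0.90 in the other controls and 0.29 to 0.99 in the Ccna2-KO-labelled libraries. Of 10 epithelial markers none was called in edgeR, DESeq2 or limma voom, and Epcam had 1884 and 1928 CPM on average. At an unadjusted edgeR p under 0.05, 2 were lower, Cdx1 and Cdx2, against 2153 of the 15893 genes tested.

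Of the 12 listed leukocyte markers, 9 passed the filter on low counts. In edgeR 7 of the 9 fell, against 5.71% of all genes, and 1, Cd68, rose. With the set term 4 fell (8.90% of all genes) and none rose, and limma voom called 4 lower (5.27%) and 1 higher. Ptprc, which encodes CD45, had 7.07, 38.7, 37.2 and 18.8 CPM in the controls and 5.09, 2.19, 3.81 and 5.45 CPM in the Ccna2-KO-labelled libraries. Control replicate 1 was thus the lowest control and close to the Ccna2-KO-labelled libraries. The centred mean of the 9 markers was -0.14 in this library, 0.67 to 1.33 in the other controls and -1.10 to -0.54 in the Ccna2-KO-labelled libraries. The summed level of the 9 tested was 19.2 to 82.7 CPM in the controls and 11.0 to 16.3 CPM in the Ccna2-KO-labelled libraries. Of the 8 stromal and endothelial markers 5 were tested, with a median log2 fold change of 0.95. In edgeR Des was called higher (6.40% of all genes) and Pecam1 lower (5.71%). At an unadjusted edgeR p under 0.05, 2 were higher and 1 lower, against 2023 and 2153 of the 15893 genes tested. DESeq2 called 2 higher (9.56% of all genes) and 1 lower (9.01%). The summed level of the 5 tested was 3.83 to 8.36 CPM in the controls and 6.77 to 14.1 CPM in the Ccna2-KO-labelled libraries. The part of the cycling share, of other cells or of the library numbers in the polymerase results was not tested.

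Set against Mki67 in the same library, the members fell into different positions. The log2 ratio of Polq to Mki67 was -5.05 ± 0.34 in the controls and -5.00 ± 0.07 in the Ccna2-KO-labelled libraries (mean ± SD, n = 4 each), a difference within the spread. The ratio of Pole to Mki67 was also close, at -4.00 ± 0.49 and -3.96 ± 0.23. These control means include control replicate 1, at -3.38 for Pole (other controls -4.55 to -3.92) and -5.43 for Polq (other controls -5.23 to -4.66). Mki67 itself rose, with a log2 fold change of 1.55 ± 0.20 (SE) and groups that did not overlap. A gene that does not change between the groups thus has a ratio lower by about that amount. Lower ratios therefore restate the rise of Mki67 in part, and the share of all genes with such ratios was not computed. The other 8 members had lower mean ratios to Mki67 in the Ccna2-KO-labelled libraries. Polk (-1.61) and Polh (-1.27) had the widest differences, with no overlap between groups. They were followed by Pold1 (-1.07), Prim2 (-0.86) and Pola2 (-0.77), also with no overlap. Pole2 (-0.67), Prim1 (-0.52) and Pola1 (-0.28) had groups that overlapped. Control replicate 1 had the highest control ratio for each of these, for example -4.26 for Pole2 (other controls -5.88 to -5.21). For Polk the ratio was -2.89 ± 0.53 in the controls and -4.50 ± 0.37 in the Ccna2-KO-labelled libraries. For Pold1 the ratio was -3.18 ± 0.32 in the controls and -4.24 ± 0.25 in the Ccna2-KO-labelled libraries, and for Pola2 it was -2.13 ± 0.22 and -2.90 ± 0.21. No test was made on these ratios.

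Levels per length put Pola2 at the top and Polq at the bottom in both groups. Here CPM was divided by the length in kilobases of the GENCODE transcript that matches each gene's most abundant curated RefSeq transcript, which is approximate where isoforms differ. In the controls Pola2 had 8.90 ± 1.15 and Polq 0.33 ± 0.04 CPM per kilobase (SD, n = 4). Between them came Prim1 (4.19), Prim2 (3.60), Pold1 (3.22), Polk (3.02), Pole2 (1.75), Polh (1.65), Pola1 (1.27) and Pole (0.92). This order rests in part on control replicate 1. Over the other 3 controls Polk (3.13) came second, ahead of Prim2 (2.66), Prim1 (2.49) and Pold1 (2.45), and Pole2 (0.96) came after Polh (1.64). Over all 4 controls, neighbours in the order had overlapping ranges, except Pole and Polq. In the Ccna2-KO-labelled libraries the order began again with Pola2 (15.6), Prim1 (7.40), Prim2 (5.60) and Pold1 (4.40). It went on with Pola1 (2.98), Polk (2.97), Pole2 (2.64), Pole (2.57), Polh (2.06) and Polq (1.02). Neighbours again overlapped, except Pola2 and Prim1 at the top and Polh and Polq at the bottom. 

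Single transcripts carried less information than gene sums. The table listed 40 transcripts of the members, of which 21 passed the filter, and none of them was called in edgeR's test over 38384 transcripts (0.93% of all transcripts were called). At an unadjusted p under 0.05, 5 of the 21 were higher and none lower. The share of all transcripts at that threshold was not computed, and no other tool was run on transcripts. Prim1 and Pold1 have 1 transcript each in the table. For Pola1, 98.8% of the control counts and 96.6% of those in the Ccna2-KO-labelled libraries fell on 1 transcript. Polq counts were spread over 6 transcripts, and the most abundant took 41.3% in the controls and 50.1% in the Ccna2-KO-labelled libraries. That transcript had a log2 fold change of 1.97 ± 0.49 (SE; edgeR adjusted p = 0.133). Pola2 counts were spread over several of 9 listed transcripts, and a predicted one that took 9.20% in the controls and 14.6% in the Ccna2-KO-labelled libraries had the smallest adjusted p, 0.0603 (edgeR). Kallisto divides reads that fit several isoforms between them, so these shares are estimates.

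Genes that work with the polymerases were drawn from lists of 71 other genes, of which 70 were tested. Of these, 11 were called higher and 2 lower (15.7% higher, against 6.40% of all genes), with a median log2 fold change of 0.35. With the set term 13 were higher and 3 lower (18.6% higher, against 9.29% of all genes), and the median was 0.085. Without control replicate 1, 40 were higher and 6 lower, against 15.1% and 13.4% of all genes. With any 1 of the other libraries left out, 5 to 10 were higher and 1 or 2 lower. The calls over all genes were fewer in these fits too. They were 572 to 947 higher and 400 to 772 lower, of 16006 to 16266 tested. Over all 8 libraries they were 1017 and 907, of 15893 tested.

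Among the further subunits of polymerases delta and epsilon, 1 of 5 was called higher. For this and the next lists, 6.40% of all genes were called higher. This was Pole3, a histone-fold subunit of polymerase epsilon (0.64 ± 0.18 SE, edgeR adjusted p = 0.0473). Of 10 genes of the sliding clamp and its loaders, Atad5, which unloads the clamp (0.91 ± 0.15), and Chtf18, of an alternative loader (1.43 ± 0.36), rose. The clamp gene Pcna had 0.34 ± 0.19 (SE; edgeR adjusted p = 0.293) and is named here after its value was seen. Of 16 helicase and replisome genes 4 rose, among them Wdhd1, which links polymerase alpha to the helicase (1.13 ± 0.21), Mcm10 (1.01 ± 0.19) and the checkpoint mediator Clspn (1.97 ± 0.38). The list had a median of 0.99, and of 0.55 with the set term. Of 9 genes of Okazaki fragment processing and single-strand binding, Dna2, a nuclease that trims flaps (1.46 ± 0.32), and Rpa1 (0.78 ± 0.21) rose. This list had a median of 0.594, and of 0.152 with the set term. The medians were 0.439 and 0.145 for the clamp list, and 0.166 and -0.018 for the further subunits.

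Members aside, the translesion, repair and mitochondrial polymerase genes called over all 8 libraries were lower. The clamp ubiquitin genes called in that fit were higher. Over all genes, 5.71% were called lower and 6.40% higher. The pattern changed with the fit. With the set term Polg was called higher (0.31, edgeR adjusted p = 0.0309, against 9.29% of all genes) and Usp1 was not called (0.0803). Without control replicate 1, Polg was again called higher, and Ube2b and Shprh lower. Their edgeR adjusted p were 0.0347, 0.0292 and 0.0169, with 15.1% of all genes called higher and 13.4% lower. Other calls in these lists kept their direction. Of 5 tested translesion genes beside the members, 1 was called, Primpol, a primase-polymerase that restarts stalled forks, and it fell by 0.72 on the log2 scale (SE 0.13, edgeR adjusted p = 0.00934). It was lower within both number sets, with differences of -0.81 and -0.82. Of 5 repair and mitochondrial polymerase genes, Polg2, the accessory subunit of the mitochondrial polymerase, was called lower (-0.49 ± 0.13). Of 7 genes that attach or remove ubiquitin on the clamp, which recruits translesion polymerases, 2 rose. They were Rad18, the ligase (1.41 ± 0.24, edgeR adjusted p = 0.00685), and Usp1, the deubiquitinase (0.45 ± 0.13), whose adjusted p of 0.04997 lay at the threshold. Of 13 other end-joining genes none was called in edgeR, DESeq2 or limma voom, with a median of 0.03. At an unadjusted edgeR p under 0.05, 2 of the 13 were higher, against 2023 of the 15893 genes tested. Without control replicate 1 the median was 0.16 and 3 were called higher, Xrcc1, Mre11a and Xrcc6, against 15.1% of all genes. The most abundant of them, Rbbp8, which starts end resection, had 33.4 and 34.2 CPM on average (0.03 ± 0.10).

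**Figure D4:**
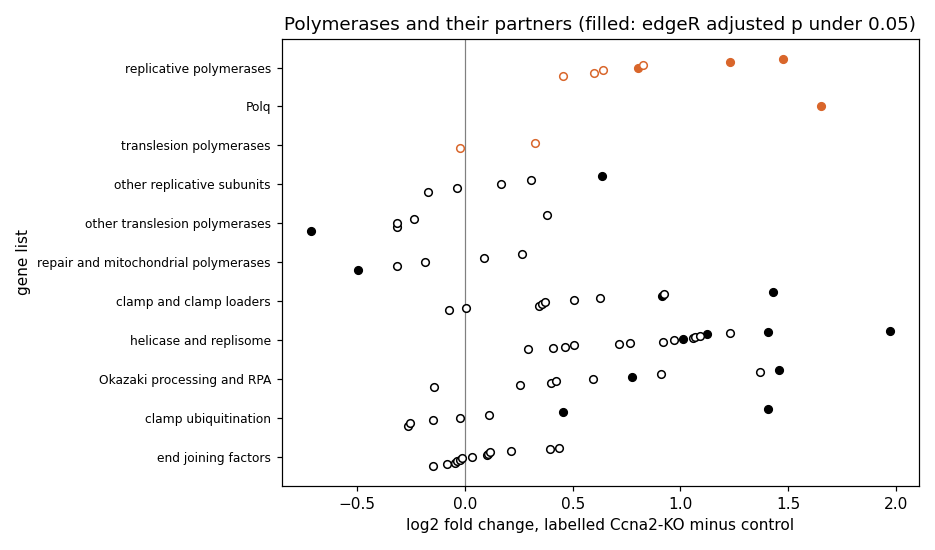
Log2 fold change, Ccna2-KO-labelled libraries minus controls (horizontal axis), of each member (orange) and of the genes in 8 partner lists (black); filled points passed an edgeR adjusted p of 0.05. Clspn at 1.97 is the largest value shown and Primpol at -0.72 the smallest.

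Finally, genes were ranked by how closely their centred log2 CPM followed that of the members over the 8 libraries, as a root mean square difference, among 11837 genes with a mean log2 CPM of at least 1. Closest to the replicative mean were Mcm7 (0.08), Orc6, Tyms, Dtymk and Dut (0.10). Closest to Polq were Ticrr (0.17), Sprr2a3, Tgfbr2, Smc2 and Asic1 (0.20). These genes were chosen for profiles like those of the members over the same libraries, control replicate 1 included, so their group differences follow from the choice and are not given. Sprr2a3 belongs to a family of near-identical genes, so its count is uncertain. Among the members, Prim2 and Pola1 (0.20 each) lay nearest to the replicative mean, Pola2 (0.38) was farthest of the 7, and Polq was at 0.52. Each of the 7 is part of that mean and Polq is not. The distances of the 7 are therefore smaller by construction and not directly comparable with that of Polq.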

How the data were processed

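RNA of 8 libraries was quantified. The authors deposited estimated counts for RefSeq transcripts, made with kallisto on mouse build GRCm38 (mm10) per the submitters' processing notes; its version and the strandedness of the libraries are not given. The transcripts of a symbol were added up and the sums rounded. Rows without a symbol (3.19% to 5.51% of counts) were left out, leaving 25960180 to 33028486 counts per library. Genotype was tested over all 8 libraries with edgeR 4.0.16 in R 4.3.3 (filterByExpr, TMM, robust quasi-likelihood F test, no covariate) with Benjamini-Hochberg adjustment over all genes kept. Log2 CPM used a prior count of 2. The fit was tested on simulated data. The simulation held no library that stands apart and no number set, so it cannot show how the fit handles them. Members, gene lists and tests were chosen with earlier results of these data known. Named by rule were the members, Ccna2, Mki67, Epcam, Ptprc and the 5 nearest genes by profile. From each partner list, up to 3 called genes with the smallest adjusted p were named, or the most abundant where none passed. Cdx1, Cdx2, Cd68, Des, Pecam1, Pcna, Polg, Ube2b, Shprh, Xrcc1, Mre11a and Xrcc6 were named after their values were seen. Alternatives were DESeq2 1.42.0, voom of limma 3.58.1, scaling by RLE or by upper quartile, no filter or a minimum of 1 CPM throughout a group, terms for replicate number and library number set, and leaving out each library. Gene positions and promoter windows are from RefSeq (GRCm38.p6), transcript lengths from GENCODE on the same build. Per-length levels without control replicate 1 were added after seeing the data. No library repeated another within sampling noise.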

Additional observations from a re-analysis of the deposited data

Results flagged for a closer look

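The 38 sets of 4 values looked at came in equal number from the controls and from the Ccna2-KO-labelled libraries. Only the control sets hold control replicate 1. It lay far from the other 3 controls in 7 of these control sets, and no Ccna2-KO set had such a value. The gap to its nearest neighbour, as a share of the range, exceeded Dixon's 95% critical value, which chance passes in about 5% of sets. The sets share libraries and genes, so the 7 are not independent. The values in this library were 12.2 CPM for Pola1 (others 4.63 to 5.38), 25.7 CPM for Pola2 (19.9 to 20.7), 14.7 CPM for Prim1 (3.39 to 5.03), 19.1 CPM for Pold1 (7.54 to 9.13) and 12.9 CPM for Pole (3.71 to 4.92). The centred replicative mean was 0.53 (others -0.92 to -0.73), and the replicative mean minus the translesion mean was 0.67 (others -0.90 to -0.66). Prim2, Pole2, Polq, Polh and Polk of this library did not pass this measure. Prim2 and Pole2 came close, with gaps of 0.827 and 0.818 of the range.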

How the results depend on the processing

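Of 160 values of the 10 members under 16 alternatives, 139 kept their direction and their side of the threshold. Pola2 and Polq were called under all 16. With single libraries left out, the count of all genes called ranged from 972 to 4627, of replicative members called from 1 to 7, of partner genes called from 6 to 46, and the replicative median minus that of Polq, Polh and Polk from 0.25 to 1.11 (0.48 over all libraries). The highest of each of these came without control replicate 1, where the controls left all belong to the low number set. The median of Polq, Polh and Polk was the Polh value, 0.32 over all libraries, while Polq had 1.65. With the set term the difference of the medians was 0.157. Upper quartile scaling moved Pola1 to an adjusted p of 0.05001. DESeq2 called 2949 genes and 21 partner genes, and the set term 2892 genes; the cause was not tested. With replicate number as a replicate block, 987 genes were called, 3 replicative members among them and Polq. The numbers did not pair the libraries (correlations of same-numbered deviations -0.07, -0.35, -0.26 and 0.15), and 1 of 4 matched its own number best. Polk ranged from -0.118 to 0.062 with single libraries left out and changed sign without control replicate 3 (0.062) or 4 (0.007) and without Ccna2-KO replicate 3 (0.055) or 4 (0.052), where it did not pass. Counts of 73 to 95 for Polq and 36 to 200 for Pole2 in the controls limit their precision.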
